A study of Mus musculus with 6 samples.

Results

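Fibronectin and 9 genes of matricellular proteins were followed in mouse cells: Fn1, Tnc, Thbs1, Thbs2, Thbs3, Sparc, Postn, Vcan, Spp1 and Tgfbi. They were chosen by name, with earlier results of these data known. A gene was taken as measured when a probe set of the array was paired with its symbol and no other. This gave 9 of the 10, each with 1 probe set, among 10261 genes in all, and Spp1 was not analysed here. RNA was measured on 3 arrays whose labels say keratinocytes and 3 whose labels say MEF, with no treatment in either group. By the labels and the methods the first held primary epidermal cells from back skin of newborn mice (postnatal day 0), grown in a keratinocyte medium, and the others held mouse embryonic fibroblasts of E13.5 embryos, pooled after removal of the head and inner organs and grown in DMEM with fetal bovine serum. For the fibroblasts the methods give the strain C57BL/6J, and the isolation protocol of the labels names DR-4 as the strain wanted. For the keratinocytes the sources used here give no strain. The labels call the replicates biological but do not say that they came from separate animals or cultures, so the p-values measure the spread between these arrays. Age, tissue, medium and cell type differ together between the groups and cannot be told apart, and in bulk RNA fewer cells of a type and less RNA per cell cannot be told apart either.

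Each value is the log2 signal of a probe set after RMA, the normalization that corrects background, brings arrays to 1 distribution and summarises the probes. Pearson's r over all probe sets, which are not independent, was at least 0.976 within a group and at most 0.740 between groups. Cdh1, the gene of E-cadherin, had signals of 3.33, 2.16 and 3.26 on the keratinocyte-labelled arrays and of 8.62, 8.59 and 8.73 on MEF-labelled ones. Vim, the gene of vimentin, had 11.93, 11.97 and 12.03 on the former and 3.81, 3.92 and 3.78 on the latter. Both genes ran against the labels (adjusted p = 4.03e-07 for Cdh1 and 7.89e-10 for Vim from limma). Of 13 measured keratinocyte markers, 13 were higher on the MEF-labelled arrays at an adjusted p under 0.05 from limma, as were 41.7% of all genes. Of 12 measured fibroblast markers, 12 were higher on keratinocyte-labelled ones, as were 32.9% of all genes. By the background level given below, the keratinocyte marker Krt15 was above background on no array and the fibroblast marker S100a4 on 1 array only. Among the other genes of the check, the basal keratin genes Krt14 and Krt5 had lower bounds of 87.8-fold and 108-fold on the MEF-labelled arrays, where the epithelial gene Epcam was at least 7.65-fold higher, and the collagen gene Col1a1 was at least 73.2-fold higher on keratinocyte-labelled ones. All directions given here are therefore those of the arrays as labelled. Whether the labels of the groups were exchanged was not tested, and each direction and each share by direction given here would turn if they were. A level was called above background when it exceeded the 95th percentile of that array's 10 probe sets for olfactory receptors, which lay between 5.49 and 5.92 on the keratinocyte-labelled arrays and between 6.05 and 6.58 on MEF-labelled ones. That level is rough, because on 5 of the 6 arrays 1 probe set, Olfr1174, was the highest of the 10. Without it the level lay between 5.25 and 5.58 on all arrays.

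Fibronectin is a large adhesive glycoprotein that cells assemble into fibrils through integrins, and it guides how other matrix proteins are laid down. Matricellular proteins are secreted into the matrix, but they mainly tune how cells adhere, move and respond to growth factors. Tenascins, thrombospondins, SPARC, periostin and osteopontin are the classical examples. In skin they come mostly from dermal fibroblasts and rise during wound healing, while the epidermis makes little of several of them.

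The DNA before the transcription start is shown for 5 of the genes, so that 3 of the genes bright in 1 group (Postn, Tnc and Thbs2) can be set beside genes present in both (Sparc and Vcan). Each line gives the 250 bases before the most upstream start in RefSeq, build GRCm38.p6, written 5′ to 3′ on the strand of the gene. The windows are chr3:54359017-54359266 on the plus strand and, on the minus strand, chr4:64047016-64047265, chr17:14694263-14694512, chr11:55420081-55420330 and chr13:89742513-89742762. Capitals mark TATAAA, the core of the TATA box, and CAGACA, a sequence of the kind SMAD factors bind, on either strand.
Postn: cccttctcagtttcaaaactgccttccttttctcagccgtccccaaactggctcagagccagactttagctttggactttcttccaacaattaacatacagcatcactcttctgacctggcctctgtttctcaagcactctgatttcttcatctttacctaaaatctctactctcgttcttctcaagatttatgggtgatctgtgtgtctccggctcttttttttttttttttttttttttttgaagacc
Tnc: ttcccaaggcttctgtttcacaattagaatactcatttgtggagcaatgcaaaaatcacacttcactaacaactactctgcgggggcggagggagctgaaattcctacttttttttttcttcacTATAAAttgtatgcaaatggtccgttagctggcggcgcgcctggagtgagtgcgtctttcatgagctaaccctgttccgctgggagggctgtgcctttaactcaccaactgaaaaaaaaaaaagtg
Thbs2: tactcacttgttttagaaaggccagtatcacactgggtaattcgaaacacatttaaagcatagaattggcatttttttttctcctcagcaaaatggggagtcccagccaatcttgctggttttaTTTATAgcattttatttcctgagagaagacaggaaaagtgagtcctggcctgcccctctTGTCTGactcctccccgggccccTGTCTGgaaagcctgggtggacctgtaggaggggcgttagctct
Sparc: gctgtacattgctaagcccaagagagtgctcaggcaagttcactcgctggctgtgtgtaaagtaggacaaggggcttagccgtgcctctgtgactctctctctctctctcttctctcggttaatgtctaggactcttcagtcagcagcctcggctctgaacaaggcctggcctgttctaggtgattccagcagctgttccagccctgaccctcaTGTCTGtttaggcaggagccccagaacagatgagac
Vcan: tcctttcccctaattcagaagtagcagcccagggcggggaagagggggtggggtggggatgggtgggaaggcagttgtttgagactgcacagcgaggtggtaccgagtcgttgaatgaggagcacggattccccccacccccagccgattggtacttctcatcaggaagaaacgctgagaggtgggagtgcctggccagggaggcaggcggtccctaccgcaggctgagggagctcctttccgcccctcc
RefSeq windows were at hand for 7 of the 9 measured genes, the 5 shown with Thbs3 and Tgfbi. TATAAA or its reverse complement TTTATA stood in 2 of the 7, Tnc and Thbs2, and 12.4% of all 32851 windows of this length hold it. In both genes it lay at positions -126 to -121 counted from the start (-1 is the base just before it). TATAAA was on the strand of the gene in Tnc and on the opposite strand in Thbs2. Whether either place works as a TATA box was not tested. CAGACA or TGTCTG stood in 2, at a pair of places in Thbs2 (positions -67 to -62 and -44 to -39) and once in Sparc (positions -36 to -31), and 17.1% of all windows hold it. The AP-1 motif TGACTCA or TGAGTCA stood in 0 of the 7 and in 4.46% of all windows, and the E-box CAGGTG or CACCTG in 0 of the 7 and in 17.2% of all windows. None of these motifs overlapped another in the 7 windows. The share of G and C was 40.4% for Postn, 44.8% for Tnc and 46.8% for Thbs2, and 58.8% for Thbs3, also bright in 1 group though narrowly. It was 54.0% for Sparc and 62.4% for both Vcan and Tgfbi, with a median of 52.4% over all windows. These are descriptions of the sequence, and binding was not measured.

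All 9 measured genes were higher on the keratinocyte-labelled arrays, with no overlap between the groups. Over all genes, 32.9% were higher on these arrays at an adjusted p under 0.05 from limma and 41.7% on the others, 74.5% in all. Groups that did not overlap were found for 78.4% of all genes, and for 35% in this direction. The median log2 difference as measured, signals below background included, was 2.45 for the 9 genes and -0.12 for all genes. As measured, all 9 also differed by at least 1 on the log2 scale, as 14.1% of all genes did in this direction. For each of them the exact two-sided permutation test gave p = 0.1, the smallest that 3 arrays against 3 allow. The genes split into 4 that were above background on all 6 arrays (Fn1, Thbs1, Sparc and Vcan), 4 that were above it only on the keratinocyte-labelled arrays (Tnc, Thbs2, Thbs3 and Postn), and Tgfbi in between. Of all genes, 38.2% were above background on all arrays and 9.57% only on keratinocyte-labelled ones.

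**Figure D1:**
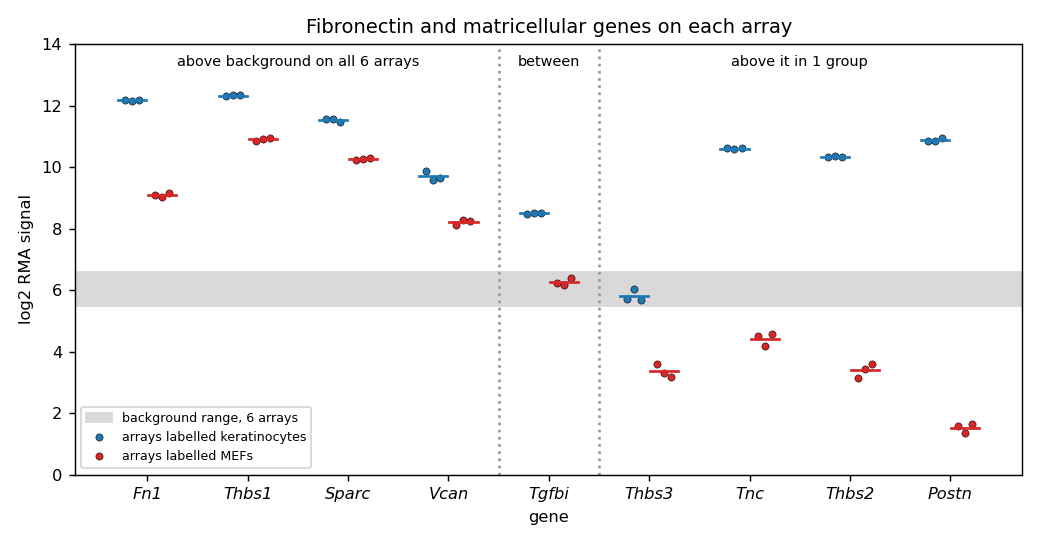
Log2 RMA signal (vertical axis) of the 9 measured genes on the arrays whose labels say keratinocytes (3, blue) and MEF (3, red), with each point an array, short lines at the group means and grey shading over the span of the background levels, 5.49 to 6.58. Fn1, Thbs1, Sparc and Vcan lie above the shading in both groups, Tnc, Thbs2 and Postn above it in 1 group and far below it in the other, and Tgfbi and Thbs3 reach into it.

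Fn1 encodes fibronectin itself. Its log2 signals were 12.18, 12.15 and 12.16 on the keratinocyte-labelled arrays and 9.10, 9.02 and 9.16 on MEF-labelled ones. Every array of the first group was at least 2.99 above every array of the other, and the lower group was still 2.57 to 2.97 above its background. The difference was 3.07 ± 0.09 (SE), or 8.41-fold (adjusted p = 1.63e-08 from limma). Among the 4 genes above background everywhere it had the largest difference.

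Thbs1 encodes thrombospondin-1, which activates latent TGFβ and binds CD47 and CD36. Its signals were 12.30, 12.34 and 12.34 on the keratinocyte-labelled arrays and 10.86, 10.91 and 10.95 on MEF-labelled ones. It was 2.67-fold higher on the former, with a log2 difference of 1.42 ± 0.08 (SE; adjusted p = 1.22e-06 from limma). Thbs2 encodes thrombospondin-2, a trimer of the same domain layout that restrains blood vessel growth and, unlike thrombospondin-1, does not activate TGFβ. Its signals were 10.31, 10.38 and 10.33 against 3.15, 3.43 and 3.62, the last 3 all below background. Thbs2 was at least 15.5-fold higher on the keratinocyte-labelled arrays, with a measured difference of 6.94 ± 0.13 (SE; adjusted p = 2.58e-09 from limma). Thbs3 encodes a thrombospondin of the pentameric type, known from cartilage and bone. It had signals of 5.72, 6.05 and 5.67 against 3.61, 3.29 and 3.19. It passed the test with a difference of 2.45 ± 0.15 (SE; adjusted p = 1.41e-06 from limma), but its brighter group cleared background by only 0.02, 0.13 and 0.18, so no fold is given.

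Sparc and Vcan were also present in both groups. Sparc encodes a collagen-binding glycoprotein also called osteonectin. Its signals were 11.55, 11.56 and 11.47 on the keratinocyte-labelled arrays and 10.24, 10.28 and 10.29 on MEF-labelled ones. The 2.39-fold difference, 1.26 ± 0.08 (SE) on the log2 scale, was the smallest of the 4 genes above background everywhere (adjusted p = 2.54e-06 from limma). Vcan encodes versican, a large chondroitin sulfate proteoglycan that binds hyaluronan. Its signals were 9.88, 9.60 and 9.64 against 8.13, 8.27 and 8.25, a 2.81-fold difference of 1.49 ± 0.11 (SE; adjusted p = 4.14e-06 from limma). Keratinocyte-labelled replicate 1 stood highest, and the SD of 0.16 in this group compared with 0.20 for Thbs3, 0.013 for Fn1 and 0.008 for Tnc. Even the lowest array of the bright group was 1.33 above the highest of the other.

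Tnc encodes tenascin-C, a 6-armed matrix protein that is sparse in resting adult tissue and appears in embryos and wounds. Its signals were 10.61, 10.59 and 10.60 on the keratinocyte-labelled arrays and 4.50, 4.19 and 4.57 on MEF-labelled ones. Relative to background the dim group had -2.03, -1.85 and -2.01, and Tnc was at least 18.6-fold higher in the other (adjusted p = 2.82e-09 from limma). The measured difference was 6.18 ± 0.11 (SE).

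Postn and Tgfbi encode periostin and TGFBI (βig-h3), related secreted proteins built from fasciclin domains. Postn had signals of 10.84, 10.84 and 10.96 on the keratinocyte-labelled arrays and of 1.60, 1.35 and 1.64 on MEF-labelled ones, all 3 of the latter far below background. Postn was at least 22.5-fold higher on the keratinocyte-labelled arrays, with a measured difference of 9.35 ± 0.11 (SE; adjusted p = 7.89e-10 from limma). Tgfbi had signals of 8.46, 8.52 and 8.52 against 6.23, 6.15 and 6.40, a difference as measured of 2.24 ± 0.10 (SE; adjusted p = 1.84e-07 from limma), or 4.71-fold. In the lower group Tgfbi cleared background only on replicate 2, by 0.11, and lay 0.30 and 0.18 under it on replicates 1 and 3 (values relative to background of -0.30 and -0.18). Its fold therefore rests on a group measured on 1 of 3 arrays, and it was at least 2.59-fold with the highest olfactory receptor probe set as background.

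Among the 4 genes above background in both groups, the log2 difference was ordered Sparc, Thbs1, Vcan and Fn1. Thbs1 and Vcan, next to each other in this order, had differences of 1.42 and 1.49 that lay closer than their standard errors. The genes below background in the MEF-labelled group have only bounds there and were not ordered.

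The folds called "at least" depend on the background level. With the brightest olfactory receptor probe set left out, a choice made after its values were seen, they became 45.4-fold for Postn, 37.5-fold for Tnc and 31.3-fold for Thbs2, all still lower bounds, and Thbs3 gained a bound of 1.35-fold. With the highest of the 10 as background the bounds of Tnc and Thbs2 were 11.1-fold and 9.30-fold, and that of Postn was lower by a factor of 1.67. Under that level Thbs3 and Tgfbi changed places, and without the brightest probe set Tgfbi joined the genes above background on all arrays.

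**Figure D2:**
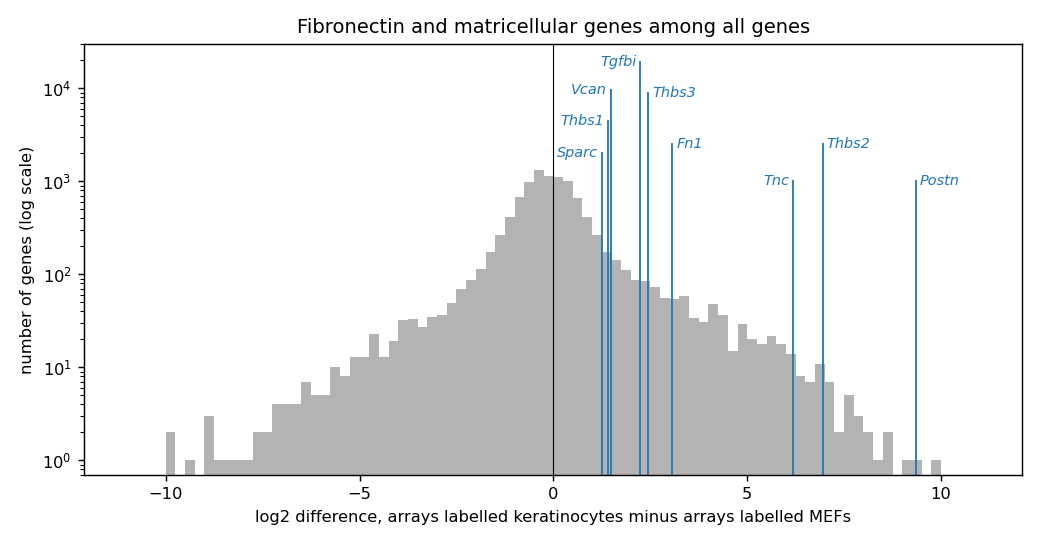
Log2 differences of all 10261 genes (horizontal axis, keratinocyte-labelled arrays minus MEF-labelled arrays) as grey bars of their number (vertical axis, log scale), with blue lines at the 9 measured genes. Differences are drawn as measured, and those of Tnc, Thbs2, Thbs3 and Postn rest on signals below background in the MEF-labelled group. The lines run from 1.26 for Sparc to 9.35 for Postn, and Fn1, the rightmost of the genes above background everywhere, stands at 3.07.

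Genes with the closest course over the 6 arrays were sought for each measured gene, by the Euclidean distance of log2 values after each gene's own mean was subtracted. With 2 groups of arrays this mainly finds genes with a like difference. The nearest was Ebf3 for Fn1 (distance 0.131), Pcdh18 for Tnc (0.185), Zfp618 for Thbs1 (0.0547), Slit2 for Thbs2 (0.176) and Daam2 for Thbs3 (0.168). It was Lbp for Sparc (0.0583), Lipa for Vcan (0.129) and Arhgef2 for Tgfbi (0.125). For Postn it was Bgn, the gene of the small proteoglycan biglycan, at the larger distance of 0.822. Daam2 and Lbp were above background on no array.

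Of 30 other matricellular genes listed, 19 were measured, of which 18 were higher on the keratinocyte-labelled arrays (32.9% of all genes) and 1 on MEF-labelled ones (41.7% of all genes), with a median difference of 2.96. As in the group of 9, some were above background everywhere (6 of 19) and some only in 1 group (10 of 19), while Comp, Spock2 and Spock3 were above it on no array. The largest log2 differences as measured were those of Fstl1, Ccn3, Mgp and Ccn4. All 4 rest on signals below background in the MEF-labelled group, and their bounds follow another order. Fbln5, named after its values were seen, had a smaller measured difference of 5.36 but a bound of at least 14.5-fold. Fstl1, a secreted relative of SPARC, had signals of 10.73, 10.83 and 10.84 against 2.86, 1.75 and 1.91 and was higher by at least 21.3-fold (limma, adjusted p = 2.41e-08). Ccn3 and Ccn4, of the CCN family of matricellular regulators, were at least 5.80-fold and 7.40-fold higher (adjusted p = 3.98e-08 and 2.47e-08), and Mgp, an inhibitor of matrix calcification, at least 5.28-fold (adjusted p = 7.35e-09). The relatives Ccn1 and Ccn2, named after their values were seen, were above background on all arrays and 5.90-fold and 5.09-fold higher on keratinocyte-labelled ones. Among tenascins and thrombospondins outside the 9, Tnn and Thbs4, also named after their values were seen, were above background only on the keratinocyte-labelled arrays. Their log2 differences as measured were 4.27 and 2.96. Both rest on signals below background in the MEF-labelled group, so Tnn was at least 1.20-fold higher and no fold is given for Thbs4. The exception was Lgals3, which encodes galectin-3, a sugar-binding protein common in epithelia. It was 2.39-fold higher on the MEF-labelled arrays, with 7.84, 7.93 and 7.94 against 6.60, 6.80 and 6.55 (adjusted p = 7.99e-06 from limma).

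Some of the receptors listed beside these proteins were higher on the keratinocyte-labelled arrays and others on MEF-labelled ones. Integrins are pairs of an alpha and a beta chain that tie the matrix to the cytoskeleton. Of 13 listed subunits that bind fibronectin or matricellular proteins, 13 were measured, with 9 higher on the keratinocyte-labelled arrays and 4 on MEF-labelled ones, against 32.9% and 41.7% of all genes. Their median log2 difference was 1.59, signals below background included. Among the 9, Itga4 and Itgb8 did not exceed background on any array, and Itgb3 exceeded it on 2 keratinocyte-labelled arrays only. Itga4, Itgb8 and Itgb3 were named after their values were seen. Itgb6, the beta chain that pairs with αv in epithelia and binds fibronectin and latent TGFβ, had signals of 8.48, 8.77 and 8.61 on the MEF-labelled arrays and of 1.82, 1.49 and 1.22 on keratinocyte-labelled ones. The former were higher by at least 7.56-fold (adjusted p = 5.61e-09 from limma). Itga3, the alpha chain of the keratinocyte laminin receptor, was 22.9-fold higher there too (adjusted p = 4.01e-08). Its fold rests on a dim group that only just cleared background on keratinocyte-labelled replicate 2 (5.94 against 5.92). Itgb7 and Itga2b, both below background on every array, had log2 differences of -2.42 and -0.72 (adjusted p = 2.00e-04 and 3.47e-04). On the other side, Itga8 and Itga9, alpha chains that bind tenascin-C, had differences of 3.91 and 3.62 (adjusted p = 4.38e-08 and 6.30e-08), but their bright group lay close to background, so no fold is given. Itga5, Itgb1 and Itgav, named after their values were seen, were above background on all arrays, as were Itga3 and Itgb5 of the 13. Itga5, the alpha chain of the classical fibronectin receptor, was 5.70-fold higher on the keratinocyte-labelled arrays, with 9.06, 9.23 and 9.16 against 6.74, 6.58 and 6.60 (adjusted p = 8.41e-08 from limma). This fold depends on the background level. On MEF-labelled replicate 3 Itga5 only just cleared it (6.60 against 6.58). The highest olfactory receptor probe set (7.19, 6.66 and 7.52) lay above Itga5 on every MEF-labelled array. Itgb1, the partner of Itga5, was 1.75-fold and Itgav 1.30-fold higher (adjusted p = 2.82e-04 and 2.71e-03).

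Of 12 other receptors, 9 were measured, with 5 higher on the keratinocyte-labelled arrays, 4 on MEF-labelled ones and a median log2 difference of 0.28. Of all genes, 32.9% and 41.7% passed in these directions. The largest difference was that of Ddr2, a receptor for fibrillar collagen, which none of the genes followed here encodes. Ddr2 had 9.98, 9.95 and 9.80 against 2.81, 2.00 and 2.63, at least 11.5-fold higher on the keratinocyte-labelled arrays (adjusted p = 1.24e-08 from limma). Its relative Ddr1 went the other way and was 3.01-fold higher on the MEF-labelled arrays (adjusted p = 1.13e-06). Cacna2d1, a calcium channel subunit that binds thrombospondins, was at least 1.62-fold higher on the keratinocyte-labelled arrays, and Lrp1, an endocytic receptor that clears thrombospondins, 6.78-fold (adjusted p = 1.25e-07 and 8.78e-08). On the MEF-labelled arrays, Ptprz1, a phosphatase that binds tenascins, was at least 3.33-fold higher, the heparan sulfate proteoglycan gene Sdc1 4.70-fold and the hyaluronan receptor gene Cd44 1.90-fold (adjusted p = 1.01e-05, 8.46e-08 and 3.54e-05).

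**Figure D3:**
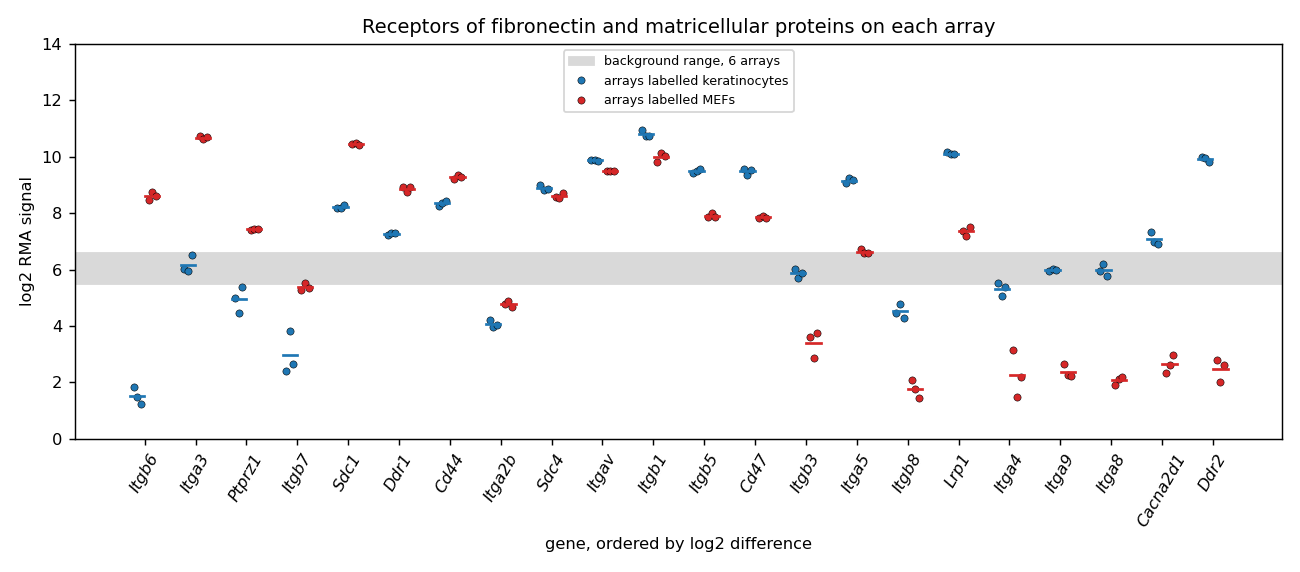
Log2 RMA signal (vertical axis) of the 13 integrin subunits and 9 other receptors, ordered by their log2 difference, on the same arrays (blue and red as labelled), with each point an array, short lines at the group means and grey shading over the span of the background levels. At the left end Itgb6 and Itga3 are higher on the MEF-labelled arrays, at the right end Cacna2d1 and Ddr2 on keratinocyte-labelled ones, and Sdc4, Itgav and Itgb1 in the middle are above the shading in both groups.

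Among 16 partners and proteases of versican, 8 were measured. Of these, 6 were higher on the keratinocyte-labelled arrays (32.9% of all genes), 0 on MEF-labelled ones (41.7%), and Adamts1 and Hyal2 did not pass, with log2 differences of -0.16 and -0.28 (adjusted p = 0.104 and 0.0934 from limma). Adamts5, a protease that cuts versican and aggrecan, had signals of 9.03, 8.88 and 8.93 against 2.50, 2.58 and 2.63 and was higher by at least 5.91-fold (limma, adjusted p = 1.54e-09). Has2, the main hyaluronan synthase of mesenchyme, was at least 1.11-fold and Cemip, which takes part in hyaluronan breakdown, at least 2.03-fold higher (adjusted p = 2.12e-05 and 3.39e-07). The median log2 difference of the 8 as measured, signals below background included, was 3.20. Of these genes, 1 was above background on all arrays, 5 in 1 group only and 2 on no array. Tnfaip6, which modifies hyaluronan, had a difference of 3.28 (adjusted p = 2.69e-08) but was above background on no array.

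TGFβ drives the transcription of several matricellular genes, and thrombospondin-1 and integrins with αv can release it from its latent form. Of 15 listed ligands, receptors and activators, 12 were measured, with 9 higher on the keratinocyte-labelled arrays (32.9% of all genes), 2 on MEF-labelled ones (41.7%), and Tgfbr1 not past the threshold (log2 difference -0.06, adjusted p = 0.663 from limma). The median log2 difference of the 12 was 1.41. The ligand gene Tgfb3 had signals of 9.47, 9.55 and 9.50 against 2.31, 2.23 and 2.31 and was higher by at least 8.70-fold (limma, adjusted p = 7.89e-10). Tgfb2 was at least 1.43-fold higher (adjusted p = 4.03e-08). Ltbp2 and Ltbp1, whose products are latent TGFβ binding proteins or their relatives in the matrix, were at least 6.80-fold and, measured, 6.48-fold higher (adjusted p = 3.52e-09 and 4.30e-08). The receptor gene Tgfbr2 and the signal transducer gene Smad2 were 1.21-fold and 1.36-fold higher on the MEF-labelled arrays (adjusted p = 0.0225 and 5.38e-03). Of these 2 calls, 1 was lost with median centring, with quantile normalization and with a replicate block.

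Of 15 genes of processing and crosslinking, 12 were measured, with 9 higher on the keratinocyte-labelled arrays (32.9% of all genes) and 2 on MEF-labelled ones (41.7%), and Tll1 did not pass (log2 difference 0.01, adjusted p = 0.926 from limma). Their median log2 difference was 0.64. Pcolce, an enhancer of procollagen processing, was at least 23.4-fold higher on the keratinocyte-labelled arrays (adjusted p = 1.11e-09). Mmp2, a gelatinase, was 10.6-fold higher, and the genes of cathepsin K (Ctsk) and tissue plasminogen activator (Plat) were at least 1.41-fold and 2.76-fold higher (adjusted p = 9.73e-09, 1.22e-07 and 1.45e-07). Tgm1, the transglutaminase of the cornified envelope, had a difference of -2.18 with no array above background, and Plau, the gene of urokinase, was 1.31-fold higher on the MEF-labelled arrays (adjusted p = 1.44e-05 and 4.43e-03).

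**Figure D4:**
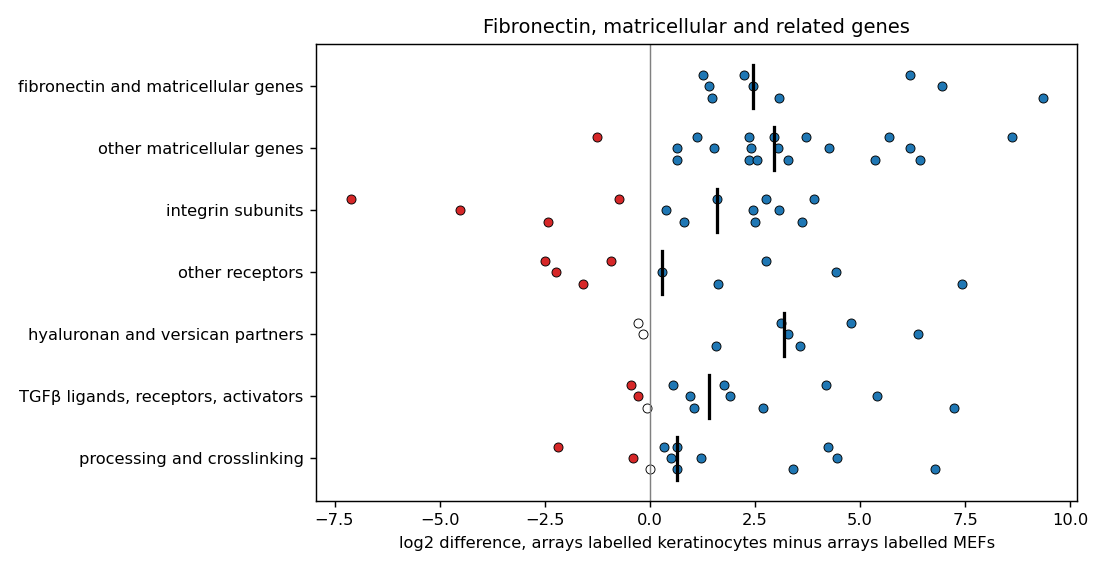
Log2 differences (horizontal axis) of the 9 measured genes and of 6 related lists, 1 point a gene, with blue for genes past the threshold and higher on the keratinocyte-labelled arrays, red for those higher on the MEF-labelled arrays, white for those not past it, and a black bar at each list's median. The points of the 9 genes all lie right of 0, as do 18 of 19 other matricellular genes, while the integrin subunits and other receptors spread over both sides.

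Markers of other cell types were looked at beside these results. Of all genes, 32.9% were higher on the keratinocyte-labelled arrays and 41.7% on MEF-labelled ones. Of the 8 muscle markers, 6 were measured and all were higher on the keratinocyte-labelled arrays. Their summed log2 signal lay between 44.0 and 45.3 against 24.3 to 25.9. The largest log2 differences as measured were those of Cnn1 (6.06) and Acta2 (4.64). Cnn1 was below background in the MEF-labelled group and at least 5.07-fold higher, while Acta2, above background on all arrays, was 24.9-fold higher. Among the 6, Tnnt3 was above background on no array and Des on 1 array only. Of the 9 cartilage and bone markers, 4 were measured, 3 higher and 1 lower on the keratinocyte-labelled arrays, with sums of 23.6 to 24.5 against 17.9 to 18.6. Col2a1 had a difference of 3.61 and was above background only on the keratinocyte-labelled arrays. Acan, with 1.88, and Comp were above it on no array. The lower one was Sox9, named after its values were seen, with a difference of -0.85 (adjusted p = 4.52e-05 from limma). Sox9 was above background on all arrays. Of 8 macrophage markers, the 2 measured went opposite ways, Cd68 with -3.92 and Lyz2 with 3.74, and their sums were 9.1 to 10.2 against 9.1 to 10.7. Lyz2 was above background on 1 array only. Cd68 was above it on all MEF-labelled arrays and at least 7.28-fold higher there. Of 7 endothelial markers, the 1 measured, Kdr, had a difference of -1.47 and was above background on no array, with 3.3 to 3.6 against 4.8 to 5.1. Melanocyte and red blood cell markers were not analysed here. The part of such cells in the results was not tested.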

How the data were processed

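The authors deposited log2 signals of 15648 probe sets on 6 Affymetrix MoGene-1_0-st arrays, made by RMA with oligo (version 1.46.0 in the submitters' processing notes). The sources used here do not give which arrays entered RMA or why these probe sets were kept. RMA compresses low signals and evens out the arrays' totals. Names came from the platform table, updated through RefSeq gene identifiers for 11274 of the 11288 probe sets with 1 symbol, while 645 with several symbols and 3715 with no entry were not named. The 11288 were fitted with lmFit and eBayes (limma 3.58.1, R 4.3.3) without a block, and p-values were adjusted over all of them by Benjamini-Hochberg with a threshold of 0.05. The methods name limma for a larger set of arrays, and here these 6 alone were fitted. A gene was its brightest probe set. A fold against a group below background is a lower bound, taken against the higher of background and own signal. Medians of log2 differences, also those of the related lists, include signals below background. The fit was tested on simulated data. The members and lists were chosen with earlier results of these data known. Named were all members, the genes of the label check, in each related list up to 4 with the largest differences past the threshold and up to 4 that passed against most of the list, up to 2 markers of each other cell type, and the gene nearest in course to each member. TATAAA and GC content were added after seeing the data. The alternatives covered pairing, arrays left out, scaling, filters, eBayes settings, weights, the methods' t-test, probe set choice and background level. Plots were made with matplotlib 3.10.9 (Python 3.11.15). The number of arrays limits the precision.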

Additional observations from a re-analysis of the deposited data

How the results depend on the processing

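The 9 measured genes, Cdh1 and Vim kept their direction and passed the test in each alternative in which they were fitted. The log2 difference lay between 3.03 and 3.17 for Fn1, 6.07 and 6.28 for Tnc, 1.32 and 1.51 for Thbs1, 6.79 and 7.05 for Thbs2, 2.31 and 2.57 for Thbs3, 1.24 and 1.36 for Sparc, 9.13 and 9.45 for Postn, 1.40 and 1.59 for Vcan and 2.18 and 2.33 for Tgfbi. The highest adjusted p among them was 8.74e-04 for Thbs3. Thbs3 could not be fitted with the lowest 25% of probe sets left out, nor Thbs3, Postn and Cdh1 with those below the median left out, although Postn and Cdh1 were bright in 1 group.

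The replicate numbers did not pair the arrays: deviations of same-numbered arrays correlated at -0.23, -0.21 and -0.03, and no array correlated best with its own number. With a replicate block, 9 of the 9 genes still passed, 68.8% of all genes did against 74.5% without it, and 1 TGFβ gene was higher on the MEF-labelled arrays. No other count named in the report moved by over 1.5 times with the block.

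Counts in the related lists changed as follows. TGFβ genes higher on the MEF-labelled arrays numbered 1 with median centring, 1 with quantile normalization, 0 with a minimum difference of 1 and from 1 to 2 with an array left out: without keratinocyte-labelled replicate 3, or MEF-labelled replicate 1 or 3, there was 1. With the lowest 25% left out, 4 of 6 tested integrin subunits were higher on the keratinocyte-labelled arrays and 2 on MEF-labelled ones. Of the versican partners, 3 of 5 tested were higher on the former, and of the processing genes, 1 of 10 on the latter. With those below the median left out, the counts on the former were 9 of 10 tested other matricellular genes, 4 of 5 integrin subunits and 3 of 6 other receptors. The 1 versican partner still tested was not higher there (0). On the latter they were 1 of 5 integrin subunits and 1 of 8 processing genes. With probe sets above background on under 3 arrays left out, 2 of 8 tested integrin subunits and 1 of 11 processing genes were higher on the MEF-labelled arrays. A versican partner was higher there (1) with the intensity trend, with the methods' t-test, and without keratinocyte-labelled replicate 3 (0 to 1 over arrays left out). With a minimum difference of 1, 5 processing genes were higher on the keratinocyte-labelled arrays and 1 on MEF-labelled ones, and 28.4% of all genes passed. Filters test fewer genes, and the causes of the other changes were not tested.

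Tgfbi was the 1 gene between the classes. Without MEF-labelled replicate 2 it fell among the genes bright in 1 group (0 to 1 gene between, over arrays left out), and without the brightest olfactory receptor probe set, a choice made after seeing the data, it was above background on all arrays (0 between). With the median of these probe sets as background it was so too, and Tnc lay between. The wider set of chemoreceptor genes held no further probe set. The median difference of all genes was -0.12, -0.03 with median centring and -0.08 with quantile normalization.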
